A study of Mus musculus with 6 samples.

Results

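The acute phase genes considered here were 9 of the 23420 genes in the count tables. They were the fibrinogen genes *Fga*, *Fgb* and *Fgg*, the kininogen gene *Kng1*, the plasma protein genes *Hp*, *Saa3* and *Lrg1*, and the transcription factor genes *Cebpb* and *Cebpd*. They were selected by symbol, as fibrinogen, kininogen and other acute phase genes with their C/EBP factors, after *Fgg* and *Kng1* had been seen to appear in the luminal library of *Lif* eKO mice (*Lif* deleted in the uterine epithelium) given recombinant Lif (rLif). The genes were thus chosen by their counts in the luminal rLif-labelled and eKO-labelled libraries, and the luminal differences are a description with no test attached. Acute phase proteins are plasma proteins that the liver secretes in larger amounts during inflammation. Cytokines of the interleukin-6 family, to which leukemia inhibitory factor (Lif) belongs, bind a receptor that contains gp130 and act through Stat3, and C/EBP factors take part with Stat3 in the liver response. In the uterus Lif is made mainly by the glands, and the luminal epithelium carries its receptor and responds to it before the blastocyst attaches.

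RNA was sequenced from laser-microdissected uterine luminal layer and from flushed blastocysts at 8 pm on day 4 of pregnancy. In the luminal layer, the group labelled control came from *Lif*-floxed/floxed females given PBS, the group labelled eKO from *Lif*-floxed/floxed *Ltf*-Cre/+ females given PBS, and the group labelled eKO with rLif from females of that second genotype given rLif. The libraries of these groups are called control-, eKO- and rLif-labelled below. The rLif dose was 20 µg per head by intraperitoneal injection at 10 am and 6 pm, so that tissue was taken 2 h after the last injection. The blastocysts came from uteri of the same 3 groups, and all 3 blastocyst libraries carry the genotype label *Lif*-floxed/+. Every luminal group thus carried the floxed allele on both chromosomes. The *Ltf* driver deletes in the uterine epithelium, so stromal *Lif* was left intact, and rLif was given to the whole animal.

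Each group was 1 pooled library, made from RNA of several tissue samples or from many blastocysts, which leaves the variation among animals unknown, and no p-value can be given. Total counts were 23850565 to 28460465 in the luminal libraries and 18996158 to 19638852 in the blastocyst libraries. *Lif* itself had 0 counts in the luminal control-labelled library, 28 in the eKO-labelled library and 0 in the rLif-labelled library. These counts do not bear out the luminal labels. They cannot check them either, because *Lif* is made mainly by the glands and stromal *Lif* was left intact. The libraries are therefore called by their labels. Luminal epithelial markers (*Krt8*, *Epcam*, *Cdh1* and others, 9 genes) summed to 5233, 6904 and 5288 CPM in the luminal control-, eKO- and rLif-labelled libraries. These 9 genes did not move together. By the rule given below, 2 were called higher and 3 lower for eKO with rLif against eKO (7.88% and 7.77% of all genes tested). For eKO against control 2 were called higher and 1 lower (8.08% and 9.15%). Trophectoderm markers (5 genes) summed to 2746 to 3037 CPM in the blastocyst libraries, and inner cell mass markers (4 genes) to 594 to 783 CPM.

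Levels within 1 gene are given as counts or as CPM (counts brought to a common library size), and levels of different genes as TPM, a CPM-like share that divides by exon length first, except in 1 ranking by CPM. A ratio of 2 libraries carries an exact 95% counting interval. A gene was called higher or lower when that whole interval lay beyond a log2 ratio of 1. Where a library had 0 counts, a floor of 3 counts was used. The fold, given as "at least", is then a lower bound set by that floor and not by the 95% interval, whose limit is lower. All intervals cover counting error only, because each group was 1 library. Reads amplified by PCR are not independent molecules, so the intervals can be too narrow even for counting error.

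Fibrinogen is a clotting protein built from pairs of an alpha, a beta and a gamma chain, encoded side by side by *Fga*, *Fgb* and *Fgg* on chromosome 3 (GRCm38). *Fgg* (gamma chain, chr3:83007896-83015049, plus strand) had 153 counts in the luminal control-labelled library, 0 in the eKO-labelled library and 2661 in the rLif-labelled library. *Fga* (alpha chain, chr3:83026153-83033617, plus strand) had 197, 1 and 979 counts in the same order. *Fgb* (beta chain, chr3:83042305-83049790, minus strand) had 0 counts in all 3 luminal libraries, which allows up to 0.119, 0.104 and 0.115 CPM. Reads of the alpha and gamma chain genes thus went from a low level in the control-labelled library to almost none in the eKO-labelled library and to their highest level in the rLif-labelled library, while no read of the beta chain gene was counted.

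*Fgg* was at least 978-fold higher in the rLif-labelled library than in the eKO-labelled library, and at least 58.0-fold lower in the eKO-labelled library than in the control-labelled library. *Fga* was 1080-fold higher with rLif than in the eKO-labelled library, with a counting interval of 193 to 42696 that is wide because the lower library held 1 read. Against the control-labelled library, the rLif-labelled library held more of both, by a log2 ratio of 4.08 for *Fgg* (interval 3.84 to 4.32, 16.9-fold) and of 2.27 for *Fga* (2.05 to 2.50, 4.82-fold). The level with rLif therefore lay above the control level rather than at it, and further above it for the gamma than for the alpha chain. In bulk RNA, fewer cells of a type and less RNA per cell cannot be told apart.

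Per exon length the chain genes were unequal. *Fgg* had 6.97 TPM and *Fga* 4.07 TPM in the control-labelled library, a ratio of 1.71 (interval 1.38 to 2.13). In the rLif-labelled library, *Fgg* had 96.2 TPM and *Fga* 16.1 TPM, a ratio of 6.00 (5.57 to 6.46), and these intervals did not overlap. In that library the floor of 3 counts stood at 0.105 TPM for *Fgb*, and *Fgg* lay 916-fold and *Fga* 153-fold above that floor. None of the 3 genes shared exons with another gene in the tables. A stretch of 115 bases of the *Fgg* transcript was identical to the noncoding gene *Gm30097* in GENCODE, and no such match was found for *Fga* or *Fgb*.

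The windows before the start sites of these genes are printed because *Fgg* and *Fga* differed between the luminal libraries while *Fgb*, in the same cluster, was at 0. Each is the 250 bases before the start site that RefSeq gives on GRCm38.p6, 5′ to 3′ on the strand of the gene. Capitals mark matches on either strand to TTCNNNGAA (the STAT motif), CTGGGAA (the type II interleukin-6 response element) or TTGCNNAA (a C/EBP motif). *Lrg1*, described further on, is given with them.
Fgg, chr3:83007474-83007723, plus strand: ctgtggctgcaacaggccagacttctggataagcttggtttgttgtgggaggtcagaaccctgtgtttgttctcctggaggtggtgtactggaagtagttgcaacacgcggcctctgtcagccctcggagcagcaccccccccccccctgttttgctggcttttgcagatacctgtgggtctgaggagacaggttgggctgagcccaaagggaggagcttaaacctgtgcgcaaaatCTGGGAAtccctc
Fga, chr3:83025903-83026152, plus strand: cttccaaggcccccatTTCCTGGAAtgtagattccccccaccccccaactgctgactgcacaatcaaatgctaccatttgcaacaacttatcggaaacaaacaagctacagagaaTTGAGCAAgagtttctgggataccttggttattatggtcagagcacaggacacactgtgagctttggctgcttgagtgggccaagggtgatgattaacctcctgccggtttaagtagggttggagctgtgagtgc
Fgb, chr3:83049864-83050113, minus strand: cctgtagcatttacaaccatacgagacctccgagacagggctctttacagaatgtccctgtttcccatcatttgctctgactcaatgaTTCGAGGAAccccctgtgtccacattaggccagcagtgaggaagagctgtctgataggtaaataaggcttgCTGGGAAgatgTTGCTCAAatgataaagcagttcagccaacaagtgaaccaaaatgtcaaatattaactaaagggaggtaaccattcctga
Lrg1, chr17:56121947-56122196, minus strand: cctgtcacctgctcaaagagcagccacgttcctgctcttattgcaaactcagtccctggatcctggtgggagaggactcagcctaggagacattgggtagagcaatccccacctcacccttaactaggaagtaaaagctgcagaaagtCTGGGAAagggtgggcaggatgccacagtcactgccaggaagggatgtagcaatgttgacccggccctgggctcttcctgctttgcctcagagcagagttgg
The *Fgg* window held 1 match, to CTGGGAA, at 13 to 7 bases before the RefSeq start, which lies 172 bases upstream of the first counted exon base. The *Fga* window held 1 STAT match at 234 to 226 bases and 1 C/EBP match at 135 to 128 bases before the start. The *Fgb* window held all 3 motifs, the STAT motif at 162 to 154, CTGGGAA at 91 to 85 and the C/EBP motif at 80 to 73 bases before the start. The gene at 0 in the luminal layer thus carried 1 match to each of the 3 motifs and *Fgg*, the most abundant of the cluster, carried 1 in all.

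Windows were found for 6 of the 9 genes (*Fga*, *Fgb*, *Fgg*, *Saa3*, *Lrg1* and *Cebpb*) and not for *Kng1*, *Hp* and *Cebpd*. Of the 6, 2 held the STAT motif, against 7.02% of 32851 RefSeq windows of the same length. CTGGGAA was in 3 of the 6 (9.10% of all windows) and TTGCNNAA in 3 of the 6 (9.56%). A looser C/EBP motif, TTNNGNAA, which every TTGCNNAA match also meets on the opposite strand, was in 3 of the 6 and in 36.8% of all windows. The *Cebpb* window held none of these motifs. A match describes the letters of the window and is no evidence of binding.

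*Kng1* encodes kininogen, the plasma precursor from which kallikreins release bradykinin. It lies at chr16:23058300-23082078 on the plus strand. Its counts were 485 in the luminal control-labelled library, 0 in the eKO-labelled library and 1514 in the rLif-labelled library (19.2, 0 and 58.2 CPM). It was at least 184-fold lower in the eKO-labelled library than in the control-labelled library and at least 557-fold higher in the rLif-labelled library than in the eKO-labelled library. The rLif-labelled library exceeded the control-labelled library by a log2 ratio of 1.60 (interval 1.45 to 1.75, 3.03-fold).

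The neighbouring kininogen gene *Kng2* had the same order, with 325, 0 and 448 counts. The log2 ratio of its rLif- and control-labelled libraries was 0.42 (0.21 to 0.63), which did not reach the limit. The transcripts of *Kng1* and *Kng2* shared 1345 aligned bases at 91.8% identity, so reads may have been split between them or dropped in ways that the stated counting settings do not show, and the separate counts of the pair are uncertain.

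*Hp* encodes haptoglobin, which binds free haemoglobin (chr8:109575128-109579172, minus strand). Its luminal counts were 118 in the control-labelled library, 3 in the eKO-labelled library and 160 in the rLif-labelled library (4.67, 0.104 and 6.15 CPM). The log2 ratio was -5.48 for the eKO-labelled library against control (interval -7.78 to -3.90) and 5.88 for eKO with rLif against eKO (4.31 to 8.17). The rLif-labelled library exceeded control by only 0.39 (0.04 to 0.75), so that *Hp*, unlike the fibrinogen genes, ended within a log2 unit of control.

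*Lrg1* encodes leucine-rich alpha-2-glycoprotein, a secreted glycoprotein of the acute phase (chr17:56119678-56121946, minus strand). It had 530, 29 and 1901 counts in the luminal control-, eKO- and rLif-labelled libraries (21.0, 1.01 and 73.0 CPM). The log2 ratio was -4.38 for eKO against control (-4.97 to -3.84), 6.18 for eKO with rLif against eKO (5.65 to 6.76) and 1.80 for eKO with rLif against control (1.66 to 1.94). *Lrg1* thus had the order of the fibrinogen and kininogen genes but was still measurable in the eKO-labelled library.

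*Saa3* encodes an amyloid A protein that is made largely outside the liver (chr7:46711998-46715676, minus strand). It had 8, 0 and 2 luminal counts in the control-, eKO- and rLif-labelled libraries. Its bound for eKO against control was 3.03-fold lower and it was not called, and no fold is given between eKO and eKO with rLif because both libraries were at or under the floor. *Saa3* is therefore the listed gene that had reads in the luminal layer but no measurable difference with rLif. Its relatives *Saa1* (1, 11 and 3 counts), *Saa2* (0, 3 and 0) and *Saa4* (0 in each) were as scarce.

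*Cebpd* and *Cebpb* encode C/EBP delta and C/EBP beta, leucine zipper transcription factors that bind promoters of acute phase genes. Per exon length they were by far the most abundant of the 9 genes in the luminal layer. *Cebpd* (chr16:15887286-15889545, plus strand) had 22069 counts in the luminal control-labelled library, 4754 in the eKO-labelled library and 59120 in the rLif-labelled library, or 677, 114 and 1441 TPM. *Cebpb* (chr2:167688915-167690418, plus strand) had 20279, 6636 and 35920 counts, or 935, 238 and 1316 TPM. Among the luminal genes tested, the TPM of *Cebpd* was at percentile 98.5, 91.1 and 99.4 and that of *Cebpb* at 99.0, 95.4 and 99.3. Both transcripts therefore stayed among the abundant ones in the eKO-labelled library, where *Fga*, *Fgg*, *Kng1*, *Hp* and *Saa3* had 3 counts or fewer.

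For *Cebpd* the log2 ratio of eKO to control was -2.40 (interval -2.45 to -2.36), and that of eKO with rLif to eKO was 3.78 (3.74 to 3.82). For *Cebpb* it was -1.80 (-1.84 to -1.76) and 2.58 (2.54 to 2.62). The rLif-labelled library exceeded control by 1.38 for *Cebpd* (1.35 to 1.40), which was called, and by 0.78 for *Cebpb* (0.76 to 0.81), which was not. For eKO against control and for eKO with rLif against eKO, the differences of both factors were smaller on the log2 scale than those of *Fga*, *Hp* and *Lrg1*. On the exon of *Cebpd*, 319 bases overlap the minus-strand gene *2310008H04Rik*, so its counts are uncertain without a stated strand setting. That gene had 266, 156 and 314 counts. A stretch of 563 bases of the longest *Cebpd* transcript was identical to *Spidr*, and 320 bases of *Cebpb* matched *Tmem189* at 99.4%.

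**Figure D1:**
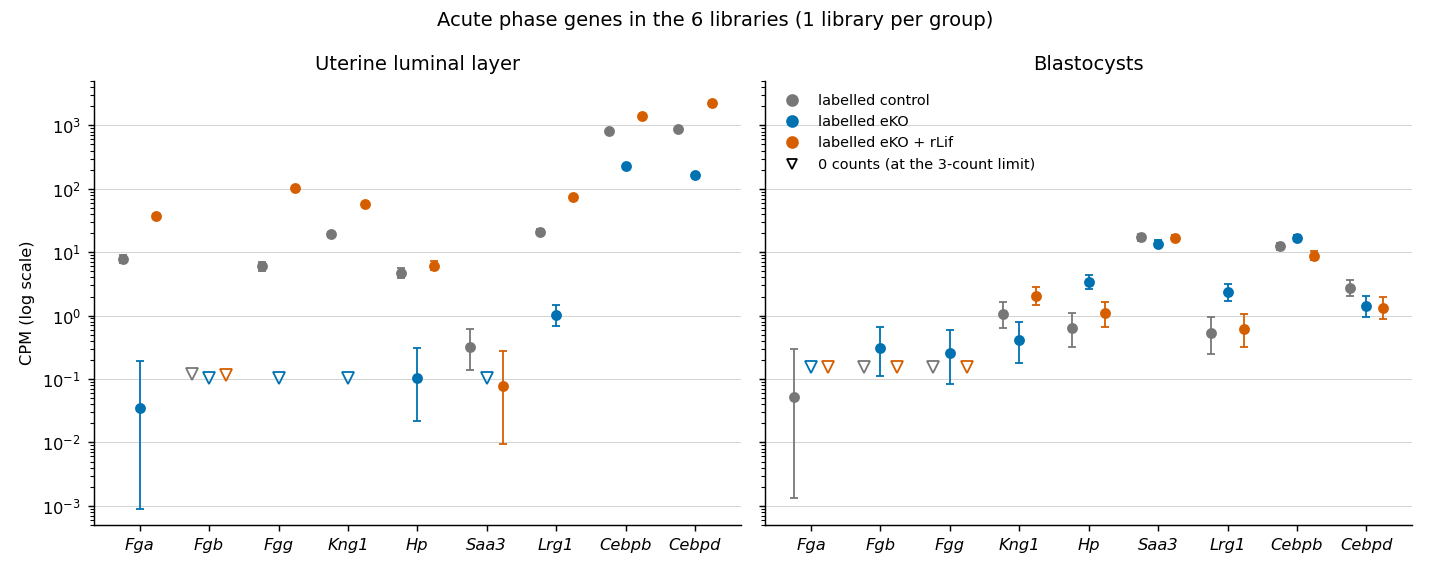
Level of each acute phase gene in CPM on a log axis, in the luminal layer (left) and blastocysts (right), with 1 point per library and exact 95% Poisson intervals. Open triangles are libraries at 0 counts, drawn at the floor of 3 counts. In the luminal layer the eKO-labelled library has the lowest point for each of the genes with reads except *Saa3*, where both treated and untreated eKO libraries are at or under 3 counts.

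In the luminal layer, 8 of the 9 genes passed the minimum of 10 counts over the 3 libraries, *Fgb* being the exception. Several passed only through the libraries in which they were high. For eKO with rLif against eKO, 7 of these 8 were called higher and 0 lower, where 7.88% of 15694 genes tested were called higher, 7.77% lower and 15.6% in either direction. The genes had been chosen with this comparison known, and nothing is read from that count. For eKO against control, 7 were called lower and 0 higher (8.08% of all genes tested higher, 9.15% lower, 17.2% either way). That comparison shares the eKO-labelled library with the first one. Between rLif-treated eKO and control, 5 were called higher, namely *Fga*, *Fgg*, *Kng1*, *Lrg1* and *Cebpd*, and 0 lower (4.12% of all genes tested higher, 5.04% lower, 9.16% either way). At a log2 limit of 2, 2 of these calls were left, *Fga* and *Fgg*. The median log2 ratio of the 8 genes, with genes at 0 placed at their bound, was 6.03, -4.93 and 1.49 in these comparisons, beside -0.0027, -0.0027 and 0.0022 over all genes tested.

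**Figure D2:**
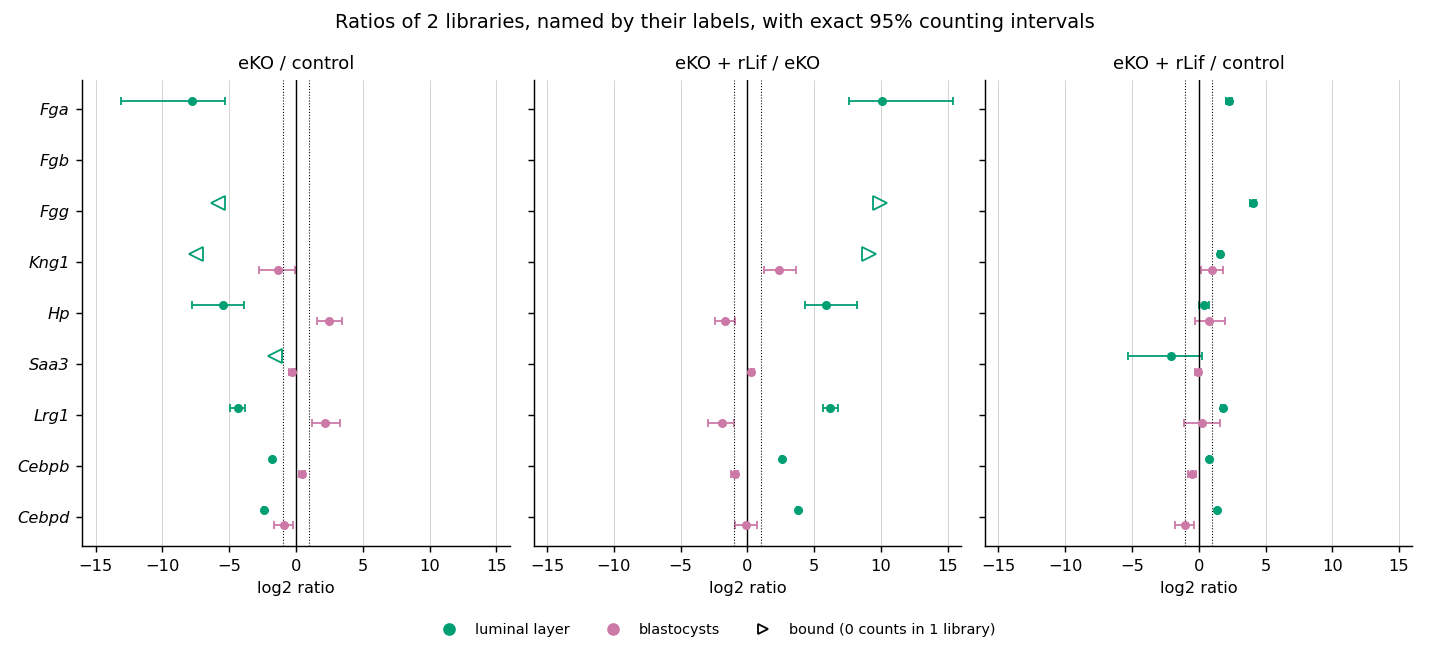
Log2 ratios of the acute phase genes in the luminal layer (green) and blastocysts (pink) for each pair of labels, with exact 95% counting intervals and dotted lines at a log2 ratio of 1 in either direction. Open triangles are lower bounds, genes under the minimum of 10 counts are left out, and green points lie left of 0 in the first panel and right of 0 in the second, while pink points of *Hp* and *Lrg1* lie on the other side.

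Genes with at most 3 counts in the luminal eKO-labelled library were ranked by their CPM in the rLif-labelled library, and 657 genes entered the ranking. *Fgg* ranked 1, *Kng1* 4 and *Fga* 5. Between them stood *Atp13a4*, a P-type transporter gene (230, 1 and 2248 counts in the control-, eKO- and rLif-labelled libraries), and *Defb1*, a beta-defensin gene (264, 3 and 1807 counts). *Hp* ranked 19 and *Saa3* 548. The ranking uses the same values by which *Fgg* and *Kng1* were chosen, and it orders read numbers, which grow with exon length, so it is a description and nothing is read from these places.

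The genes around the listed ones were examined to see how far the differences extended along the chromosome. Within 100 kb of *Fgg*, *Kng1*, *Saa3*, *Hp*, *Lrg1*, *Cebpd* or *Cebpb* lay 42 genes, of which 31 passed the minimum and 3 were called higher in the luminal rLif-labelled library than in the eKO-labelled library (9.68%, where 7.88% of all genes tested were). They were *Fga*, *Kng2* and *Plin5*. Leaving out *Fga* and *Kng2*, 1 of 29 was called, and the log2 ratios ran from -1.73 to 4.51 with a median of 0.28.

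*Plin5*, a lipid droplet protein gene 2129 bases from *Lrg1*, had 30, 3 and 62 counts, a log2 ratio of 4.51 (interval 2.90 to 6.83). *Plrg1*, a splicing factor gene 40488 bases from *Fgg* and beyond *Fgb*, had 1018, 744 and 1049 counts and was not called. *Txnl4b*, 1076 bases from *Hp*, had 641, 723 and 631 counts. *Hrg*, the histidine-rich glycoprotein gene on the other side of *Kng2* from *Kng1*, had 0, 4 and 0. The share of neighbours called was near or under that over all genes tested. Nothing is therefore read from it on how far the differences extended. *Hrg* and *Fgb* were under the minimum and were not tested.

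**Figure D3:**
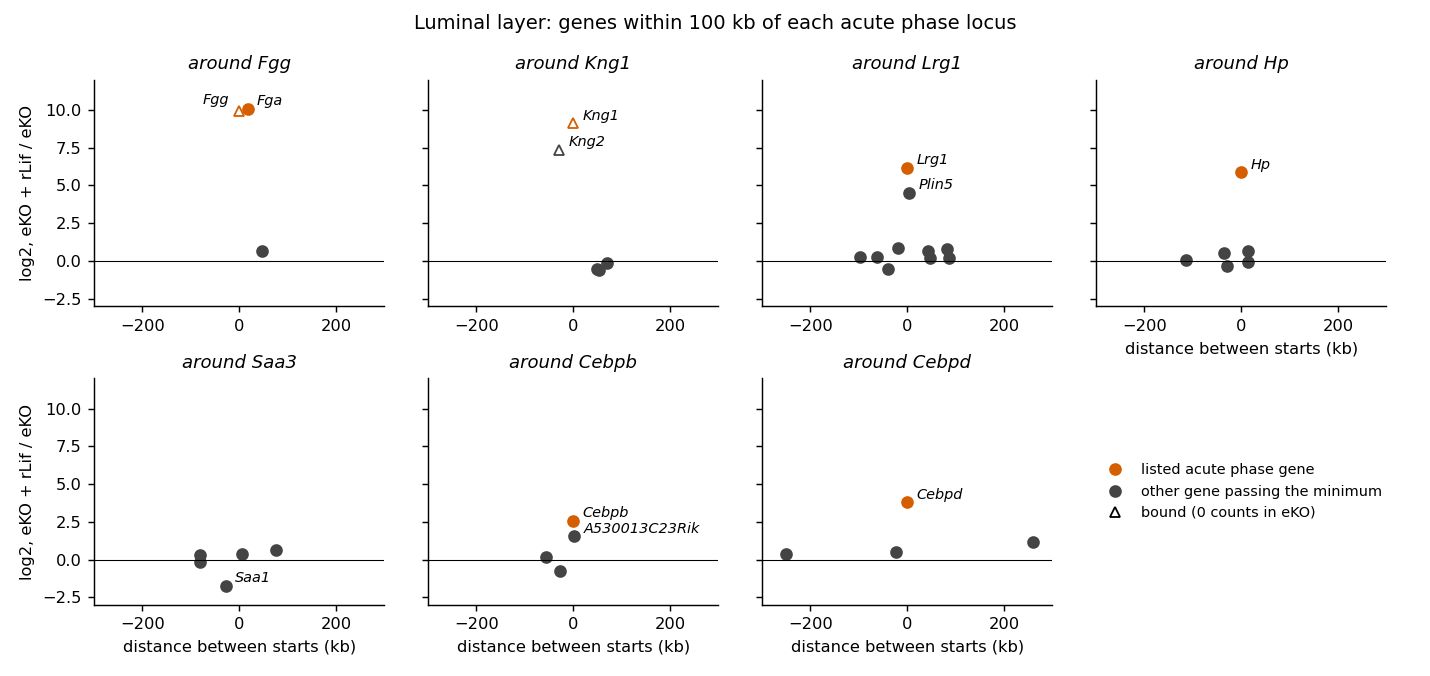
Log2 ratio of the luminal rLif- and eKO-labelled libraries for the listed acute phase genes (orange) and the genes within 100 kb of them (grey), against the distance between start sites in kb along the strand of the listed gene. Open triangles are lower bounds, and *Kng2* and *Plin5* are the only grey points above the log2 limit with their whole interval.

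In blastocysts, a sample type that the choice of genes did not use, the same genes were mostly scarce. *Fga* had 1, 0 and 0 counts in the blastocyst control-, eKO- and rLif-labelled libraries, *Fgb* 0, 6 and 0, and *Fgg* 0, 5 and 0. These 3 genes were under the minimum, and 6 of the 9 passed it. Of the 6, 1 was called higher and 0 lower for eKO with rLif against eKO (0.914% of 14873 genes tested higher, 2.83% lower, 3.75% either way). For eKO against control 2 were called higher and 0 lower (1.29% of all genes tested higher, 1.86% lower, 3.15% either way). Between rLif-treated eKO and control 0 were called in either direction (0.948% of all genes tested higher, 3.99% lower, 4.94% either way). The median log2 ratio of the 6 genes was -0.52, 0.06 and 0.09 in these comparisons, against -0.0055, -0.0039 and -0.015 over all genes tested. With a log2 limit of 2, 0 of the listed genes were called in blastocysts.

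*Kng1* was the gene called with rLif in blastocysts, with 20, 8 and 40 counts. Its log2 ratio was 2.33 for eKO with rLif against eKO (interval 1.22 to 3.64) and -1.36 for eKO against control (-2.75 to -0.11). For eKO with rLif against control it was 0.97 (0.16 to 1.82), and neither comparison with control was called. The order of the 3 libraries was that of the luminal layer, at counts that were much lower. *Kng2* had 24, 16 and 10 counts and did not share that order. The separate counts of this pair of near copies are uncertain here too.

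*Hp* had 12, 67 and 21 counts in the blastocyst control-, eKO- and rLif-labelled libraries, and *Lrg1* had 10, 46 and 12. The log2 ratio for eKO against control was 2.45 for *Hp* (1.55 to 3.47) and 2.17 for *Lrg1* (1.16 to 3.32), and both were called higher. Their ratio for eKO with rLif against eKO was -1.67 (-2.45 to -0.94) and -1.93 (-2.98 to -0.99), and neither was called. In blastocysts the eKO-labelled library thus held the highest level of both genes, where in the luminal layer it held the lowest.

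Markers of white blood cells were read beside these values, and they did not share one order. The 5 macrophage markers in the tables summed to 61.8, 123 and 21.0 CPM in the blastocyst control-, eKO- and rLif-labelled libraries. The lysozyme gene *Lyz2* made up most of that sum, with 976, 2128 and 289 counts, and 0 of the 5 were called for eKO against control. The 7 neutrophil markers in the tables summed to 191, 228 and 272 CPM and were dominated by *Csf3r*, which was highest in the rLif-labelled library (3357, 4234 and 5162 counts). *Cxcr2* was highest in the control-labelled library (236, 122 and 69). *S100a8* (6, 33 and 7), *S100a9* (38, 60 and 51) and *Retnlg* (4, 12 and 0) were highest in the eKO-labelled library. *Mpo* and *Elane* had 2 counts or fewer in every library. *Lcn2*, which is not in that list, had 0, 64 and 13 counts. The part of such cells in the *Hp* and *Lrg1* counts was not tested.

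*Saa3* was the listed gene with the highest blastocyst level per exon length. It had 325, 266 and 321 counts in the control-, eKO- and rLif-labelled libraries, or 72.2, 58.3 and 69.6 TPM. Its log2 ratio was 0.28 for eKO with rLif against eKO (interval 0.04 to 0.52) and -0.33 for eKO against control (-0.56 to -0.09), and it was not called. *Saa3* was thus the reverse of the fibrinogen genes, present in blastocysts at a similar level in each library and at 8 counts or fewer in the luminal layer.

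*Cebpb* had 237, 333 and 172 counts in the blastocyst libraries, and *Cebpd* 52, 28 and 26. Their log2 ratios for eKO with rLif against eKO were -0.95 (interval -1.22 to -0.68) and -0.10 (-0.93 to 0.72), and neither was called. *Cebpd* was at 1.33 to 2.72 TPM in blastocysts, where it had 114 TPM or more in the luminal layer.

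The other genes of the acute phase were taken from a list of 26, of which 17 passed the minimum in the luminal layer. With rLif against eKO, 7 were called higher and 0 lower (over all genes tested 7.88% were called higher and 7.77% lower), and the median log2 ratio was 0.58. Those with the largest ratios were *Lcn2* (lipocalin 2, which binds bacterial siderophores; 4200, 110 and 8824 counts; 6.47, interval 6.20 to 6.75), *Orm1* (orosomucoid; 104, 37 and 1530; 5.51, 5.04 to 6.02), *Cp* (ceruloplasmin; 4440, 523 and 6064; 3.68, 3.55 to 3.81) and *C3* (complement; 687, 50 and 515; 3.51, 3.09 to 3.96). *Orm1* exceeded control with rLif by 3.83 (3.55 to 4.14), while *Cp* and *C3* stayed within 0.46 of it. For eKO against control, 4 of the 17 were called lower and 3 higher (9.15% and 8.08% over all genes tested), with a median of -0.75. The 3 higher included the metallothionein genes *Mt1* (35972, 85531 and 82506 counts) and *Mt2* (6985, 20146 and 12497). For eKO with rLif against control *Mt1* was called higher too, while *Mt2* had a log2 ratio of 0.79 (0.75 to 0.84) and was not called. Negative acute phase genes, whose plasma proteins fall during the response, had 4 of 9 above the minimum and 0 called. In blastocysts the positive list had 0 called higher and 3 lower of 14 for eKO with rLif against eKO (0.914% and 2.83% over all genes tested). For eKO against control it had 3 higher and 0 lower (1.29% and 1.86%), and both comparisons use the eKO-labelled library.

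Genes of clotting, in which fibrinogen is the substrate, were read next. Of 11 coagulation genes tested in the luminal layer, 1 was called higher and 0 lower with rLif against eKO, namely *Thbd* (thrombomodulin; 635, 185 and 983 counts), a share near the 7.88% called higher over all genes tested. For eKO against control 4 of the 11 were called lower, *Thbd*, *F3*, *F5* and *Proc*, and 2 higher, *F8* and *Serpinc1*, where 9.15% and 8.08% of all genes tested were. Of 10 genes for fibrinogen receptors and crosslinking, 1 was called higher, the adhesion gene *Icam1* (214, 88 and 227), again near the share over all genes. Medians of the coagulation list and of the receptor and crosslinking list were 0.15 and 0.11.

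In the kallikrein-kinin list, which holds the enzymes, receptors and inhibitors around kininogen, 12 of 13 genes passed the minimum, 3 were called higher and 2 lower with rLif against eKO (7.88% and 7.77% over all genes tested), with a median of 0.07. Besides *Kng2*, these were *Serping1* (the inhibitor of C1 and plasma kallikrein; 25571, 4661 and 25473 counts; log2 ratio 2.59), *Klkb1* (plasma kallikrein; 120, 35 and 122; 1.94), and, lower, *Klk1* (tissue kallikrein; 7, 12 and 0) and *Bdkrb1* (a bradykinin receptor; 2, 11 and 0). *Serping1* and *Klkb1* lay near the control level, with log2 ratios of -0.05 and -0.02 for eKO with rLif against control, whereas *Kng1* lay above it.

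Haem handling genes, which act after haptoglobin has bound haemoglobin, had 1 of 10 called higher with rLif, *Hmox1* (haem oxygenase; 1416, 357 and 1947 counts; log2 ratio 2.59, interval 2.43 to 2.76), which is near the 7.88% of all genes tested. Of the other C/EBP genes, 1 of 3 tested was called higher, *Cebpa* (3288, 646 and 2188 counts; 1.90, 1.77 to 2.03). *Cebpg* (10146, 6472 and 11734) had a log2 ratio of 1.00 (0.96 to 1.04) and was not called.

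The interleukin-6 type signalling list, which covers the receptor, kinase, STAT and feedback genes upstream of the acute phase response, had 5 of 18 called higher and 3 lower with rLif against eKO (7.88% and 7.77% over all genes tested), with a median of 0.29. The largest of those called higher were *Osmr* (oncostatin M receptor; 1413, 71 and 4178 counts; log2 ratio 6.02, interval 5.68 to 6.38), *Socs3* (feedback inhibitor; 1482, 153 and 4242; 4.93, 4.70 to 5.18) and *Il6ra* (interleukin-6 receptor; 268, 40 and 246; 2.76, 2.28 to 3.28). *Lif* itself, with luminal reads in the eKO-labelled library only, was among the 3 called lower. *Osmr* and *Socs3* exceeded control with rLif by 1.52 and 1.47, as *Fga*, *Fgg*, *Kng1*, *Lrg1* and *Cebpd* did by 1.38 to 4.08. In blastocysts 0 of the 17 tested were called for any pair of labels, where 3.15% to 4.94% of all genes tested were called either way.

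**Figure D4:**
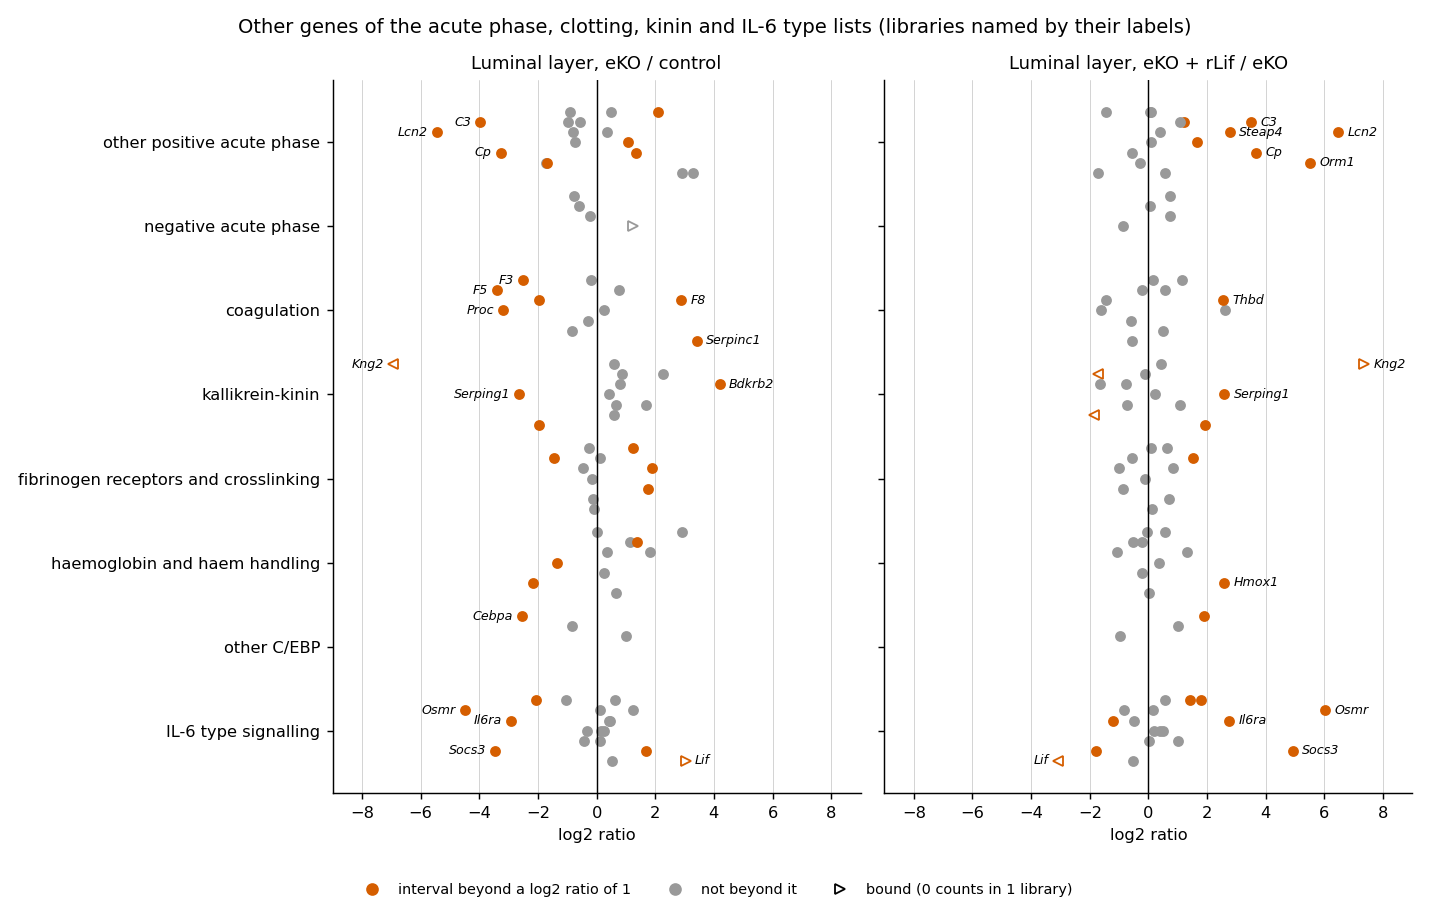
Log2 ratios of the genes of 8 lists related to the acute phase genes in the luminal layer, for eKO against control (left) and eKO with rLif against eKO (right), with 1 point per gene and names at called genes with the larger ratios. Called genes (orange) in the right panel lie on both sides of 0 in the kallikrein-kinin and IL-6 type lists and otherwise lie right of it, while uncalled genes (grey) lie around 0.

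Because these genes are best known from the liver and from blood cells, markers of other cells were read beside them. Of 12 hepatocyte markers, *Alb*, *Apoh*, *Cyp2e1*, *Cps1*, *Ahsg* and *Hpd* were at 0 in all 3 luminal libraries, and the list summed to 2.14, 11.1 and 2.19 CPM in the control-, eKO- and rLif-labelled libraries. *Serpina1c* (8, 197 and 1 counts) and *Serpina1a* (18, 88 and 29), which belong to a family of near copies, made up most of the eKO sum. Neutrophil markers summed to 7.29, 3.48 and 2.42 CPM, and macrophage markers to 878, 730 and 763 CPM. The highest macrophage marker of each library made up most of that sum, at 745, 612 and 549 CPM. Over the 5 macrophage markers, the median log2 ratio for eKO with rLif against eKO was 0.78. Platelet markers, of interest because platelets carry fibrinogen, summed to 15.1, 51.4 and 25.9 CPM. *Itga2b* made up most of each sum, at 13.6, 50.7 and 25.0 CPM, and 3 of the 4 platelet markers tested were not called for eKO against control. Stroma markers summed to 658, 1025 and 726 CPM and endothelial markers to 45.9, 66.4 and 91.2 CPM. Gland markers shared part of the order of the acute phase genes. All 3 of those in the tables were called higher with rLif against eKO, where 7.88% of all genes tested were. For eKO against control, 1 was called lower and 2 were not called (9.15% of all genes tested lower), with a median log2 ratio of -0.33. They summed to 7.17, 4.32 and 17.9 CPM. *Prss28* had 55, 13 and 142 counts and *Prss29* 123, 111 and 315, and the lowest of the 3 stood at 0.119, 0 and 0.384 CPM. The part of gland tissue in the acute phase counts was not tested.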

How the data were processed

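Laser-microdissected luminal layer and pooled blastocysts were analysed as 6 libraries, 1 per group. The authors made SMART-seq v4 libraries, aligned reads to GRCm38/mm10 with HISAT2 and counted them with featureCounts (Subread 2.0.0). The deposited values are whole-number read counts per gene with no normalization, although the methods speak of a per-kilobase unit. Which annotation release was used, and how strand and multiply mapped reads were handled, is not given in the sources used here, so genes with shared exons or near copies are uncertain.

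Samples were grouped by their labels. TMM scaling was done within a tissue with edgeR 4.0.16 in R 4.3.3, and TPM used the deposited exon lengths. Genes with at least 10 counts over the 3 libraries of a tissue were tested, 15694 and 14873. For ratios, 95% intervals are exact (Clopper-Pearson), and for single counts exact Poisson. A gene was called when the interval lay beyond a log2 ratio of 1. This compares libraries, not conditions. The calling rule was tested on simulated data that held counting error only, so that test says nothing of variation among animals. Alternatives were DESeq2 1.42.0 size factors, total counts, minimums of 50 and of 1 count, a log2 limit of 2 and edgeR's exact test with an assumed dispersion of 0.1.

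The members and lists were chosen with earlier results of these data known. Named genes were the 9 members, up to 4 called genes per list with the largest ratios for eKO with rLif against eKO, genes within 100 kb and the top 5 of the ranking; others were named after their values were seen. Some of the lists are not reported here. Promoter windows came from RefSeq (GRCm38.p6) and transcript comparisons used GENCODE M21.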

Additional observations from a re-analysis of the deposited data

Results flagged for a closer look

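For 8 combinations of gene and comparison, the log2 ratio had opposite signs in the luminal layer and in blastocysts, with counting intervals that both left out 0. Each side is 1 pair of single libraries, and the difference between tissues was not tested. For eKO with rLif against eKO, the ratios in the luminal layer and blastocysts were 5.88 and -1.67 for *Hp*, 6.18 and -1.93 for *Lrg1*, and 2.58 and -0.95 for *Cebpb*. For eKO against control they were -5.48 and 2.45 for *Hp*, -4.38 and 2.17 for *Lrg1*, and -1.80 and 0.45 for *Cebpb*. Both comparisons use the eKO-labelled library of each tissue and are not independent. Between rLif-treated eKO and control the ratios were 1.38 and -1.03 for *Cebpd*, and 0.78 and -0.49 for *Cebpb*. *Fgg*, *Fga* and *Kng1* were not among them.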

How the results depend on the processing

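DESeq2 size factors, total counts and no minimum left 12 of 12 counts of called genes within 1.5-fold. With total counts, 8 listed genes instead of 7 were called lower for luminal eKO against control, which adds *Saa3*. The 36 ratios of listed genes with reads in both libraries kept their sign under DESeq2 size factors and total counts. The shifts were at most 0.00534 and 0.177 log2 units. Ratios against a library at 0, such as those of luminal *Fgg* and *Kng1* against eKO, were not among them. A log2 limit of 2 gave 750, 868 and 295 called genes in the luminal layer (eKO with rLif against eKO, eKO against control, eKO with rLif against control; 2456, 2704 and 1438 at the limit of 1) and 93, 100 and 149 in blastocysts (557, 468 and 734). Of the listed genes it left 2 for luminal eKO with rLif against control, and 0 in blastocysts for eKO with rLif against eKO and for eKO against control. The edgeR exact test with a dispersion of 0.1 gave 1109, 1250 and 342 luminal and 58, 65 and 124 blastocyst genes, and again 2, 0 and 0 listed genes in those comparisons. A minimum of 50 counts gave 325, 209 and 447 blastocyst genes. The smaller counts follow from the stricter limits and the fewer genes tested. No paired analysis was possible because each group is 1 library. With 1 pooled library per group the intervals hold counting error only. The *Lif* counts do not bear out the luminal labels and cannot check them, and low blastocyst counts limit what can be seen for the fibrinogen genes.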

Other observations

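Some genes near the listed ones in function differed between the control- and eKO-labelled libraries but were not called between eKO with rLif and eKO. They were named after their values were seen. *F3*, tissue factor, which starts clotting, had 20138 counts in the luminal control-labelled library, 3979 in the eKO-labelled library and 4016 in the rLif-labelled library. Its log2 ratio against control was -2.53 for eKO (interval -2.57 to -2.48) and -2.37 for eKO with rLif (-2.42 to -2.32). *F5*, clotting factor V, had 477, 52 and 69 counts, with ratios against control of -3.38 (-3.83 to -2.97) and -2.83 (-3.22 to -2.47). *Plaur*, the urokinase receptor, had 316, 57 and 96 counts, with ratios of -2.66 (-3.09 to -2.25) and -1.76 (-2.11 to -1.43). In each of them the rLif-labelled library stayed below control, where *Fga*, *Fgg* and *Kng1* stood above it. *Itga2b*, the platelet integrin chain that binds fibrinogen, was highest in the eKO-labelled library (343, 1455 and 650 counts).

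In blastocysts, *Cd14*, a receptor for bacterial lipopolysaccharide, had 30, 196 and 111 counts in the control-, eKO- and rLif-labelled libraries, and *Il1rn*, the interleukin-1 receptor antagonist, had 89, 321 and 192. Both were called higher for eKO against control, with log2 ratios of 2.67 (2.11 to 3.28) and 1.81 (1.47 to 2.17), and had their highest level in the eKO-labelled library, as *Hp* and *Lrg1* did. *Itgb3*, an integrin chain that binds fibrinogen, had 1026, 93 and 19 counts, with log2 ratios of -3.50 (-3.82 to -3.19) for eKO against control and -5.78 (-6.52 to -5.13) for eKO with rLif against control.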
